A study of Bos indicus x Bos taurus with 78 samples.

Results

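The rows of a bovine miRNA count table described here are bta-miR-23a, bta-miR-23b-3p, bta-miR-23b-5p, bta-miR-27a-3p, bta-miR-27a-5p, bta-miR-27b, bta-miR-24-3p, bta-miR-10174-3p and bta-miR-10174-5p, named below without the species prefix. They were taken by name and are 9 of the 1030 rows in the table. The first 7 are products of the miR-23, miR-27 and miR-24 families, and the files give miR-23a and miR-27b without an arm. The miR-10174 rows were included because their counts were already known to lie close to those of the miR-23b rows, so that closeness is given as a description. The counts come from Longissimus lumborum biopsies, a loin muscle, of 78 male Bos indicus x Bos taurus cattle, called steers throughout. The labels put 25 steers in the dark-cutting group and 53 in the normal group. Within the dark-cutting group the labelled degree was 1/4 in 8 steers, 1/3 in 9, 1/2 in 3, 2/3 in 4 and 3/4 in 1. No other treatment, breed share, age or batch is given by the labels, and the degree is used as written there.

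Mammalian miR-23, miR-27 and miR-24 are made from a pair of related clusters. One gives miR-23a, miR-27a and miR-24, the other gives miR-23b, miR-27b and miR-24, and each cluster is transcribed as 1 precursor that is cut into hairpins. Both arms of a hairpin can be sequenced. The 3p arm is the abundant one in these families, and the mature miR-24-3p of both clusters is the same, so its reads cannot be assigned to either. The a and b forms of miR-23, and of miR-27, share their seed and differ near the 3′ end. In mouse muscle, miR-23a is known to repress the ubiquitin ligases MuRF1 and atrogin-1, which break down muscle protein, and miR-27b to repress Pax3, a factor of muscle progenitors. The miR-27 family is also known for effects on lipid metabolism, and both clusters for roles in endothelium. Dark-cutting is a defect of beef colour tied to low muscle glycogen at slaughter.

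Total counts per steer lay between 2687185 and 4370459 in dark-cutting steers and between 1427817 and 4535675 in normal steers. The tissue label was checked against 6 skeletal muscle miRNAs (miR-1, miR-133a, miR-133b, miR-206, miR-208b and miR-499), all detected, which summed to between 83.6% and 90.0% of counts in dark-cutting steers and between 76.2% and 90.2% in normal steers. The 2 endothelial markers, both forms of miR-126, made up a median of 0.541% in dark-cutting and 0.510% in normal steers. The 6 white blood cell markers made up a median of 0.0141% in dark-cutting steers (0.00762% to 0.0264%) and 0.0170% in normal steers (0.00728% to 0.0391%). The smooth muscle and pericyte markers miR-143 and miR-145 had medians of 2.23% in dark-cutting and 2.51% in normal steers, and the 3 red blood cell markers 0.0706% in dark-cutting and 0.0666% in normal steers. Of the skin epithelium markers, miR-205 was at 0 and miR-203 has no row. The part of these cell types in the results below was not tested.

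Levels are given as counts per 1000000 (CPM), scaled with the TMM factors of edgeR. They are read shares of a mature miRNA, with no length scale. The most abundant member was miR-24-3p, at 3486 ± 841 CPM (SD, n = 78), followed by miR-27b at 3326 ± 404 CPM (SD, n = 78). These neighbours did not separate, since miR-24-3p was above miR-27b in 41 of 78 steers. Next came a group near 1000 CPM, with miR-23b-3p at 1120 ± 195 CPM, miR-23a at 1071 ± 238 CPM and miR-27a-3p at 862 ± 247 CPM (SD, n = 78 each). Within it, miR-23b-3p was above miR-23a in 52 of 78 steers, and miR-23a above miR-27a-3p in 61 of 78. In every steer miR-27b was above miR-23b-3p.

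The minor arms were far lower. The 5p arm of miR-27a averaged 3.36 ± 1.80 CPM (SD, n = 78), with 2 to 48 reads per steer. miR-23b-5p had 134 reads in all, with at least 1 read in 43 steers. A count of 0 in the other 35 steers allows a level of up to between 0.661 and 2.10 CPM of the total count, depending on depth, taking 3 counts as the limit and covering counting error only. The miR-10174-5p row had 231 reads in all, in 61 steers. Together the 9 rows held 1.13% of all counts, or 1.01% without the miR-10174 rows.

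The members differed in how far the steers spread. miR-27b was the tightest, with a coefficient of variation of 12.2% and a highest level 1.71 times the lowest. miR-27a-3p, its counterpart in the other cluster, had a coefficient of variation of 28.6%, and its highest level of 1962 CPM was 4.92 times its lowest of 399 CPM. The coefficient of variation was 17.4% for miR-23b-3p, 22.2% for miR-23a and 24.1% for miR-24-3p. The plot of levels by degree shows these spreads, with groups that overlap for every member.

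**Figure D1:**
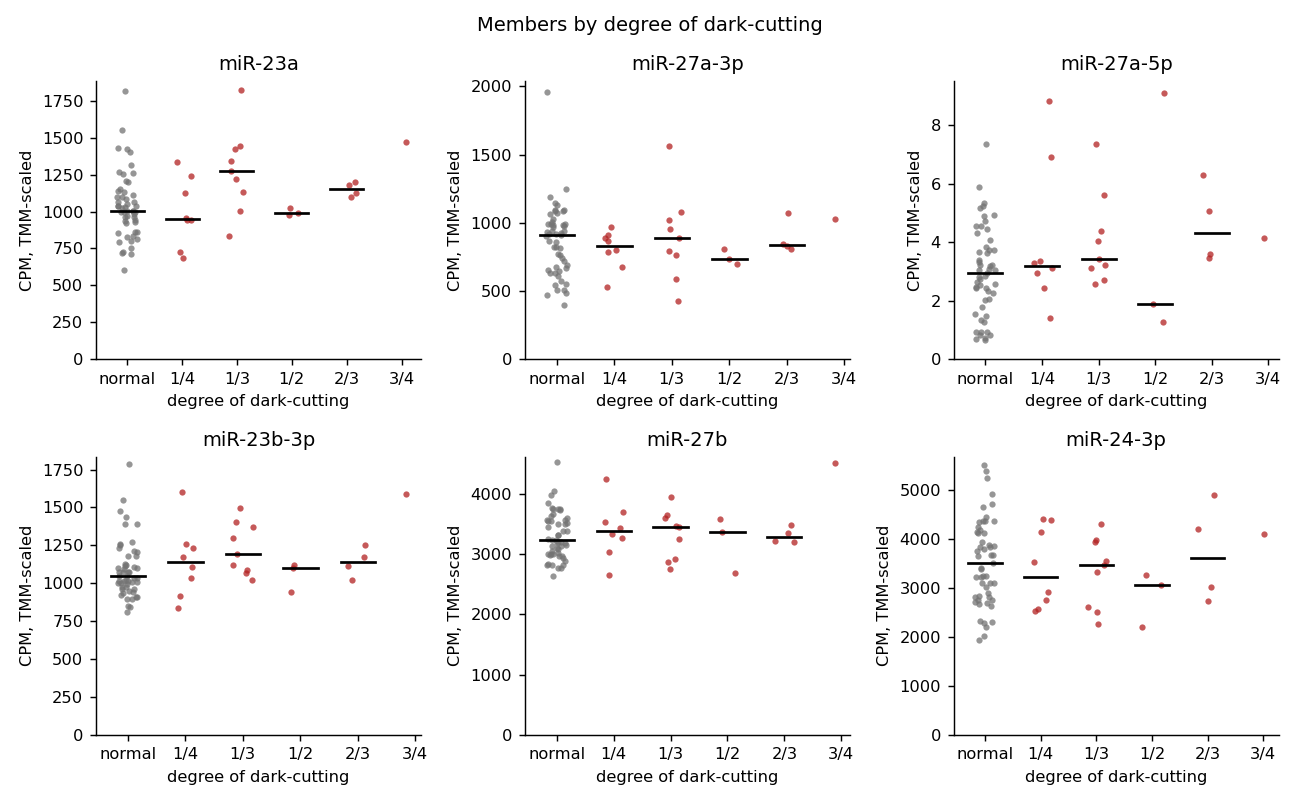
Level of 6 members in each steer (vertical axis, CPM with TMM scaling, each from 0) by degree of dark-cutting (horizontal axis, from normal to 3/4). Points are steers, grey for normal and red for dark-cutting, and black bars are medians of groups with more than 1 steer; all groups with several steers overlap the normal range.

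The miR-10174-3p and miR-23b-3p rows held nearly the same counts. The miR-10174-3p count was the higher one in all 78 steers, by 3 to 39 reads with a median of 16.5. That excess was between 0.129% and 0.965% of the miR-23b-3p count. In the sums, miR-10174-3p exceeded miR-23b-3p by 540 reads or 0.513% in dark-cutting steers and by 808 reads or 0.437% in normal steers. Pearson's r between the rows on the log2 CPM scale was 1.00 over the 78 steers. Among the 375 rows with at least 100 counts, this was the only pair with totals within 5% of each other in which 1 row was never below the other.

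The 5p rows of the same names were also nested, at a few reads per steer, but were not near copies. Over all steers the summed excess was 72.4% of the miR-23b-5p count, against 0.464% for the 3p rows. The miR-10174-5p count was never below that of miR-23b-5p, equalled it in 30 steers and exceeded it in 48, by at most 5 reads. The summed excess was 46 reads over 71 in dark-cutting steers and 51 reads over 63 in normal steers. A nested pair cannot be read as separate measurements, because the excess is the only part of a miR-10174 count that is not matched by a miR-23b count. No source used here gives how the authors counted reads that match more than 1 row, and the sequences of the rows were not analysed. Values of the miR-10174 rows below are therefore repeats of the miR-23b values for the 3p arm. By contrast, the rows of the a and b forms of miR-23 were not nested: miR-23a differed from miR-23b-3p by between -1081 and 4338 reads. Whether some reads were counted in both of these rows was not tested.

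**Figure D2:**
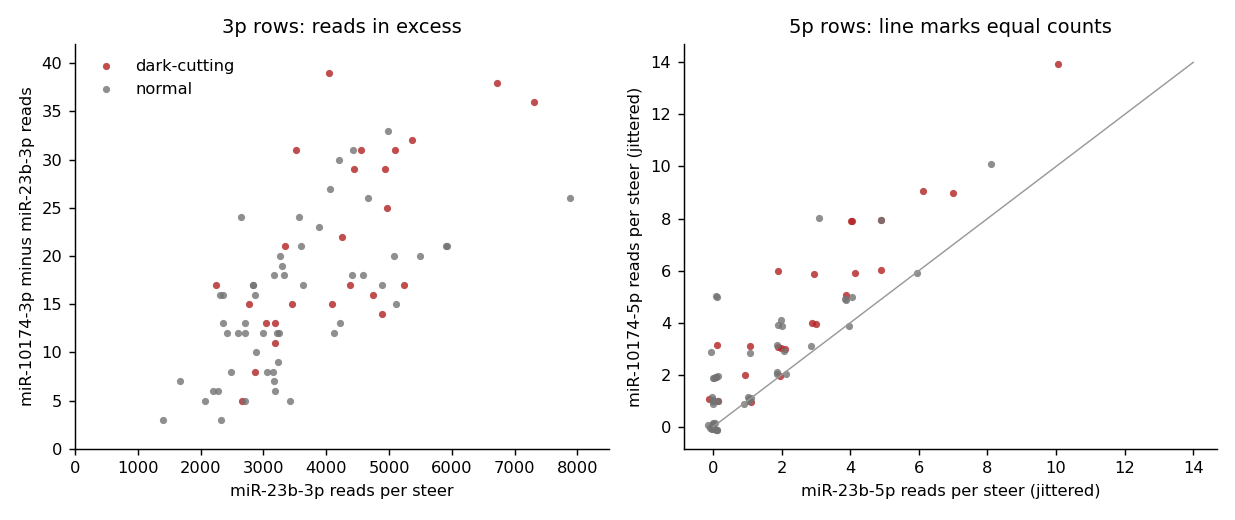
Left, reads by which the miR-10174-3p row exceeds the miR-23b-3p row (vertical) against the miR-23b-3p count (horizontal) in each of 78 steers; right, counts of the 5p rows, with a line at equal counts and points shifted by up to 0.15 at random. Red points are dark-cutting and grey points normal steers; every left-hand point lies between 3 and 39 reads, and no right-hand steer has fewer miR-10174-5p than miR-23b-5p reads.

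The first comparison was between the 25 dark-cutting and the 53 normal steers. By edgeR's quasi-likelihood F test with Benjamini-Hochberg adjustment over the whole table, 0 of 252 tested miRNAs passed (0%), the members included. The low-count filter kept 7 of the 9 members and left out miR-23b-5p and miR-10174-5p. At an unadjusted p under 0.05 there were 23 of 252 miRNAs (9.13%) and 1 of the 7 members. DESeq2 and limma-voom also gave 0 calls after adjustment. A fold change here is a shift against the rest of the same library's miRNAs, and in a biopsy fewer cells of a type cannot be told apart from less RNA per cell.

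The member with the smallest p was miR-27a-5p, the minor arm of the miR-27a hairpin. Its level ran from 1.28 over a median of 3.41 to 9.10 CPM in dark-cutting steers, and from 0.660 over a median of 2.96 to 7.35 CPM in normal steers. The ranges overlapped over most of their length, while 18 of 25 dark-cutting steers exceeded the median of normal steers. Its log2 fold change was 0.46 ± 0.17 (SE; 95% interval 0.12 to 0.80; edgeR p = 0.00926, adjusted p = 0.277). The opposite arm, miR-27a-3p, stood at 853 ± 218 CPM in dark-cutting steers (SD, n = 25) and 866 ± 261 CPM in normal steers (SD, n = 53). Its log2 fold change was -0.02 (95% interval -0.21 to 0.17), and 8 of 25 dark-cutting steers exceeded the median of normal steers.

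The miR-23 forms had like values. miR-23a averaged 1140 ± 253 CPM in dark-cutting steers (SD, n = 25) and 1039 ± 226 CPM in normal steers (SD, n = 53), a log2 fold change of 0.13 ± 0.07 (SE; edgeR p = 0.0716, adjusted p = 0.416), with 16 of 25 above the normal median. miR-23b-3p averaged 1180 ± 196 CPM in dark-cutting steers and 1091 ± 189 CPM in normal steers, a log2 fold change of 0.11 ± 0.06 (SE; edgeR p = 0.0552, adjusted p = 0.416), with 19 of 25 above. The repeated row miR-10174-3p gave 0.11 ± 0.06 (SE) as well. Both 95% intervals reach just below 0, to -0.01 for miR-23a and to -0.0026 for miR-23b-3p, and end at 0.28 and 0.23.

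The most abundant members, miR-27b and miR-24-3p, did not pass either. miR-27b averaged 3378 ± 445 CPM in dark-cutting steers (SD, n = 25) and 3302 ± 386 CPM in normal steers (SD, n = 53), a log2 fold change of 0.03 (95% interval -0.06 to 0.12). miR-24-3p averaged 3389 ± 773 CPM in dark-cutting steers and 3532 ± 874 CPM in normal steers, a log2 fold change of -0.06 (95% interval -0.23 to 0.11). For miR-27b the interval with TMM scaling ends at 1.09-fold upward, but with total counts the fitted log2 fold change itself was 0.12. Of the 7 tested members, 5 had a fitted value above 0, against 116 of all 252 miRNAs (46%), and their median was 0.11 against -0.01. These 7 hold miR-10174-3p, a repeat of miR-23b-3p, so they are not 7 separate measurements. Both rows lay above 0, so the count and the median took that measurement more than once. Without the repeat, the median of the remaining 6 would fall between 0.03 for miR-27b and 0.11 for miR-23b-3p. With total counts in place of TMM factors the median of all miRNAs moved to 0.10, and all 7 members then lay above 0.

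**Figure D3:**
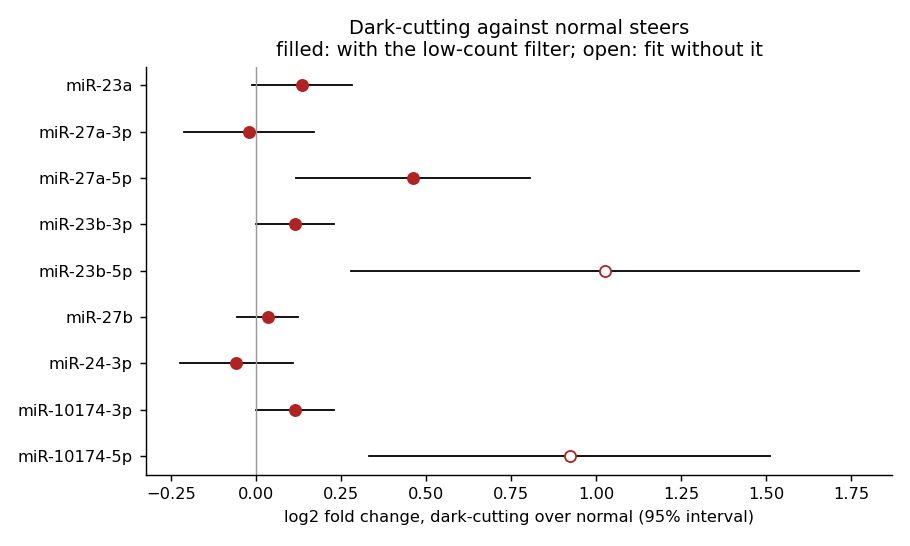
Log2 fold change of dark-cutting over normal steers (horizontal) with 95% intervals for the 9 members (vertical). Filled points are from the edgeR fit with the low-count filter and open points from the fit without it; miR-27a-5p at 0.46 is the only filled point whose interval lies wholly above 0, and both open points, miR-23b-5p at 1.03 and miR-10174-5p at 0.92, are 5p rows.

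The rows below the filter had their own values. miR-23b-5p had 71 reads in dark-cutting steers, with at least 1 read in 20 of 25, and 63 reads in normal steers, with at least 1 read in 23 of 53. In the summed libraries miR-23b-5p stood at 0.856 CPM of the total count in dark-cutting and 0.372 CPM in normal steers. miR-10174-5p had 117 reads in 24 of 25 dark-cutting steers and 114 reads in 37 of 53 normal steers. Both groups have steers at 0 and steers with several reads, so their ranges overlap.

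In a fit of all 741 rows with counts, miR-23b-5p had a log2 fold change of 1.03 ± 0.38 (SE; edgeR p = 0.00754, adjusted p = 0.257). miR-10174-5p had 0.92 ± 0.30 (SE; edgeR p = 0.00248, adjusted p = 0.167). Neither passed. In that fit 5 of the 9 members had an unadjusted p under 0.05, where 10.8% of all rows did, and 2 of 741 rows passed after adjustment, neither a member. All of those 5 but miR-27a-5p are the miR-23b and miR-10174 rows, whose counts are nested as described, so they cannot be read as separate measurements. The authors' deposited table, from DESeq2, lists miR-10174-5p at 0.95 ± 0.31 (SE, adjusted p = 0.253), with rank 4 of its 542 miRNAs by p, and miR-23b-5p at 1.09 ± 0.43 (SE, adjusted p = 0.400).

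All 3 hairpins with both arms among the members had their minor arm higher relative to the major arm in dark-cutting steers. Of these, the miR-23b and miR-10174 hairpins have nested counts. The arms were compared as the ratio of 5p to 3p reads within each steer, which needs no library scaling factor. For miR-27a there were 4.74 reads of the 5p arm per 1000 of the 3p arm in the summed dark-cutting libraries and 3.34 in the summed normal libraries. Single steers ran from 1.64 to 13.1 with a median of 4.11 in dark-cutting steers, and from 0.528 to 8.26 with a median of 3.69 in normal steers. For miR-23b the sums gave 0.674 per 1000 in dark-cutting and 0.341 in normal steers. For miR-10174 they gave 1.11 per 1000 in dark-cutting and 0.614 in normal steers, with medians over single steers of 0.843 in dark-cutting and 0.429 in normal steers.

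The mean log2 ratio, with 0.5 added to each count, was compared by two-sided permutation tests of 100000 resamples. At a 5p count of 0 (35 steers for miR-23b, 17 for miR-10174), the 3p count alone sets this ratio, which then depends on depth. The difference, dark-cutting minus normal, was 0.94 ± 0.27 (SE) for miR-10174 (permutation p = 0.00267), with 21 of 25 dark-cutting steers above the normal median. It was 0.88 ± 0.31 (SE) for miR-23b (permutation p = 0.00775), again with 21 of 25 above. Only 20 of 25 dark-cutting and 23 of 53 normal steers had a miR-23b-5p read, so that normal median is a steer with 0 reads. The 21 therefore include a steer with 0 reads, placed above by its 3p count. The difference was 0.48 ± 0.20 (SE) for miR-27a (permutation p = 0.0283), with 14 of 25 above. Adjusted over the 7 ratios between members that were computed, these p-values became 0.0187, 0.0271 and 0.0661. Adjusted over all 29 pairs of arms in the table with at least 100 counts in each row, they became 0.0774, 0.112 and 0.274, and no pair passed. The miR-23b and miR-10174 rows are nested, so their ratios enter each adjustment without being separate measurements.

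Among those 29 pairs, set as the rarer over the commoner arm, the member hairpins had the 3 highest differences with sign. No other pair had an unadjusted permutation p under 0.05. In size, the -0.78 of miR-2299 exceeded the 0.48 of miR-27a. In the other 26 pairs, 12 had a difference above 0, with a median of -0.0075 and values from -0.78 for miR-2299 to 0.28 for miR-424. The counts of the miR-23b and miR-10174 pairs are nested, so their ratios are not independent of each other. Within 26 steers with title numbers below 600 the differences were 1.06 for miR-10174, 0.82 for miR-23b and 0.34 for miR-27a. Within the 52 others they were 0.89 for miR-10174, 0.91 for miR-23b and 0.55 for miR-27a. No ratio passed within either range (smallest adjusted permutation p over the 7 ratios 0.0585, with 17 dark-cutting and 35 normal steers).

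Single steers and the added count bear on these ratios. With 1 in place of 0.5 added to each count, the miR-23b difference was 0.57 (adjusted permutation p = 0.0702 over the 7 ratios). Without dark-cutting 1/3 replicate 5, which had 10 reads of miR-23b-5p, it was 0.79 (adjusted permutation p = 0.0533). The miR-10174 difference stayed between 0.87 and 1.03 with any 1 of the 78 steers left out.

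**Figure D4:**
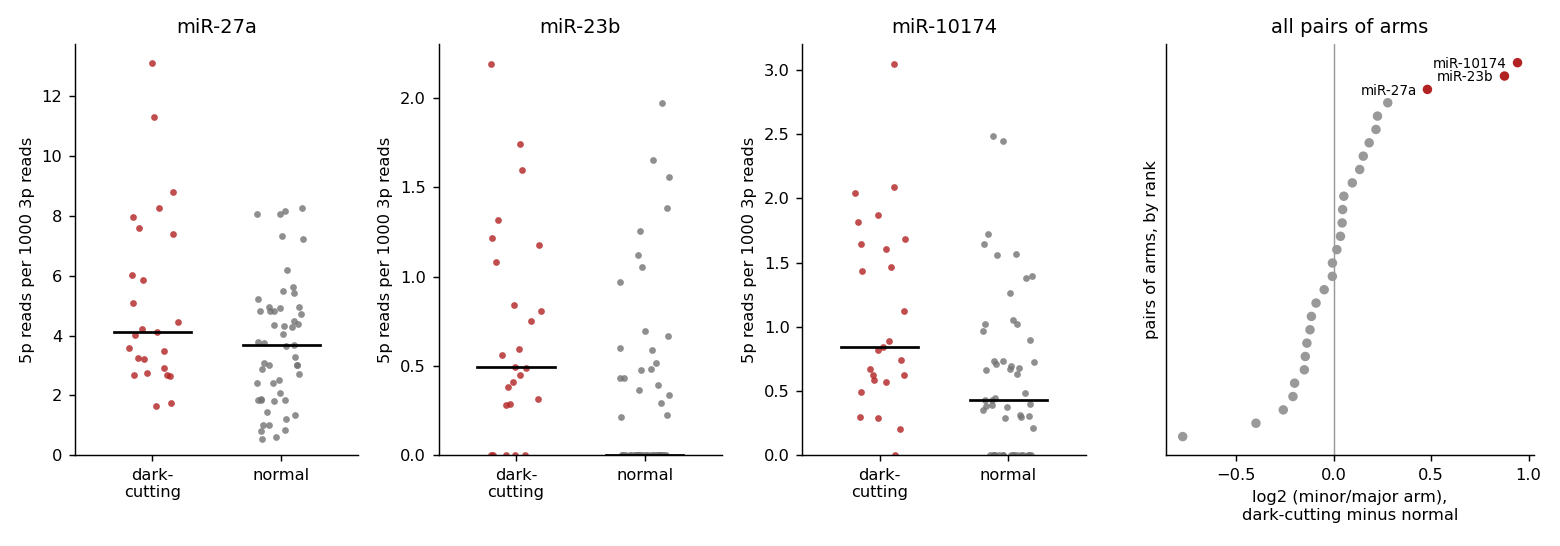
First 3 panels, reads of the 5p row per 1000 reads of the 3p row (vertical) in each dark-cutting (red) and normal (grey) steer, with black bars at medians; right-hand panel, mean log2 ratio of rarer to commoner arm, dark-cutting minus normal (horizontal), for 29 pairs of arms by rank. The groups overlap in each of the first 3 panels, and miR-10174, miR-23b and miR-27a (red) have the 3 highest differences, at 0.94, 0.88 and 0.48.

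The other 4 ratios compared the clusters with each other or neighbours within a cluster. miR-23a to miR-23b-3p was 0.975 over the summed dark-cutting libraries and 0.964 in the summed normal libraries, a mean log2 difference of 0.02 (permutation p = 0.784). miR-27a-3p to miR-27b was 0.257 over dark-cutting and 0.267 over normal libraries, a difference of -0.03 (permutation p = 0.709). Within a cluster, miR-23a to miR-27a-3p was 1.33 over dark-cutting and 1.19 over normal libraries, with a difference of 0.14 (permutation p = 0.158). miR-23b-3p to miR-27b was 0.350 over dark-cutting and 0.329 over normal libraries, with a difference of 0.08 (permutation p = 0.0708, adjusted p = 0.124 over the 7 ratios) and 18 of 25 dark-cutting steers above the normal median. None of these 4 passed.

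The second question was how the members stand at each degree. No member passed at any degree after adjustment over 272 miRNAs, among which 0 were called at 1/4, 1/3 and 1/2 (0%) and 1 at 2/3 (0.368%). At degree 1/3, miR-23a ran from 832 over a median of 1273 to 1823 CPM in 9 steers, against 600 over a median of 1007 to 1818 CPM in normal steers. In that group 7 of 9 steers lay above the normal median, within overlapping ranges. Its log2 fold change was 0.31 ± 0.11 (SE; 95% interval 0.09 to 0.52; edgeR p = 0.00523, adjusted p = 0.409), with rank 2 of 272 by p. miR-23b-3p followed at 0.19 ± 0.09 (SE; edgeR p = 0.0312, adjusted p = 0.435), with 8 of 9 steers above the normal median, and miR-10174-3p repeated that value. Counting that repeat, these were 3 of 7 members at an unadjusted p under 0.05, against 25 of 272 miRNAs (9.19%).

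The other members at degree 1/3 had log2 fold changes between -0.07 for miR-24-3p and 0.43 for miR-27a-5p. At degree 1/4 miR-23a lay on the other side of normal, with a median of 951 CPM in 8 steers and 3 of 8 above the normal median of 1007 CPM. Its log2 fold change there was -0.07 ± 0.12 (SE), and no member had an unadjusted p under 0.05, where 1.1% of miRNAs did. The difference between degrees 1/3 and 1/4 was not tested. At degree 1/2 the 3 steers had 1024, 990 and 976 CPM of miR-23a. At degree 2/3 the 4 steers had 1102, 1181, 1198 and 1126 CPM, all above the normal median. The single steer of degree 3/4 had 1473 CPM, with no test.

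The fitted value of miR-27a-5p was above 0 at each degree with a test. Its log2 fold change was 0.40 ± 0.28 (SE) at degree 1/4, 0.43 ± 0.26 at 1/3, 0.52 ± 0.40 at 1/2 and 0.54 ± 0.37 at 2/3, none with an unadjusted p under 0.05, which 4.78% of miRNAs had at 1/2 and 2.57% at 2/3. At degree 1/2 the 3 steers had 9.10, 1.88 and 1.28 CPM, from 48, 7 and 5 reads. The first of them sets the value, and without it the log2 fold change was -0.86. At degree 2/3 the 4 steers had 3.58, 3.46, 5.08 and 6.30 CPM, all above the normal median of 2.96 CPM. The steer of degree 3/4 had 4.13 CPM. These comparisons share the normal steers.

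Among the 7 members that passed the filter, the lowest value at degree 1/2 was -0.27 ± 0.22 (SE), for miR-24-3p, with 2211, 3266 and 3053 CPM, all below the normal median of 3503 CPM. Among the same 7 at degree 2/3 the lowest was miR-27b, at -0.08 ± 0.10 (SE). All 272 miRNAs there had a median of -0.07, with 90 above 0 (2 of the 7 members). With DESeq2 size factors that median was -0.0091, and 6 of the 7 members lay above 0. The CPM levels use TMM factors of the dark-cutting against normal fit. On their log2 scale miR-27b averaged 11.69 at degree 2/3 and 11.68 in normal steers. The 5p rows of miR-23b and miR-10174, which were below the filter, had their highest summed levels at the middle degrees. In the summed libraries miR-23b-5p had 0.583 CPM of the total count at degree 1/4, 1.26 at 1/3, 1.16 at 1/2 and 0.238 at 2/3. The single steer of degree 3/4 had 0.766, and normal steers had 0.372. From 1/4 to 3/4, these values of miR-23b-5p rest on 15, 37, 13, 3 and 3 reads. The 4 steers of degree 2/3 had 0, 2, 1 and 0 reads of it, and 1, 3, 1 and 1 reads of miR-10174-5p. In the fit of all 741 rows, miR-23b-5p had a log2 fold change of 1.52 ± 0.51 (SE; edgeR p = 0.0033, adjusted p = 0.395) at degree 1/3 and -0.49 ± 0.99 (SE) at 2/3. For miR-10174-5p it was 1.20 ± 0.41 (SE; edgeR p = 0.00435, adjusted p = 0.395) at degree 1/3 and -0.41 ± 0.76 (SE) at 2/3. At degree 1/3 that fit gave 5 of 9 members an unadjusted p under 0.05, against 8.37% of all rows, and 0 rows passed after adjustment (0%). These 9 hold the nested miR-23b and miR-10174 rows, which cannot be read as separate measurements.

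A trend was fitted on the labelled fraction, with 0 for normal steers. The slope of miR-27a-5p was 0.97 ± 0.39 log2 per unit of degree (SE; 95% interval 0.20 to 1.73; edgeR p = 0.0141, adjusted p = 0.32). It was the only one of the 7 tested members with an unadjusted p under 0.05, where 30 of 272 miRNAs had one (11%), and 1 miRNA passed after adjustment (0.368%), not a member. The slope of miR-23a was 0.31 ± 0.17 (SE) and that of miR-23b-3p 0.23 ± 0.14 (SE). miR-27b had 0.08 ± 0.11, miR-27a-3p -0.04 ± 0.22 and miR-24-3p -0.10 ± 0.20 (SE each). In the fit of all 741 rows the slope was 1.69 ± 0.71 for miR-10174-5p (SE; edgeR p = 0.0186, adjusted p = 0.383) and 1.88 ± 0.90 for miR-23b-5p (SE; edgeR p = 0.0397, adjusted p = 0.421). There 6 of 9 members had an unadjusted p under 0.05, against 11.3% of all rows, and 3 rows passed after adjustment (0.405%), none a member. The 9 hold the nested miR-23b and miR-10174 rows, so they are not 9 separate measurements. Within the 25 dark-cutting steers alone, 0 of 251 miRNAs passed (0%), with 9 at an unadjusted p under 0.05 (3.59%) and no member among them. There the slope of miR-27a-5p was 0.25 ± 0.83 (SE) and that of miR-23a 0.17 ± 0.37 (SE). Without the filter it was -1.26 ± 1.31 for miR-10174-5p and -1.58 ± 1.73 for miR-23b-5p (SE each).

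Over the 78 steers several members varied together, within a cluster, within a family and in part across both. On the log2 CPM scale, the 2 neighbours of the b cluster, miR-23b-3p and miR-27b, had r = 0.61 and rho = 0.58. miR-27a-3p and miR-24-3p had r = 0.66 and rho = 0.65, and the miR-23 forms, from different clusters, had r = 0.54 and rho = 0.48. All of these had a permutation p of at most 3e-05, and 1e-05 is the smallest the resamples can give. Adjusted over the 21 pairs of tested members, their p-values were at most 0.000105. The median rho over all pairs of tested miRNAs was -0.0005, with 0.369 at the 95th percentile.

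These relations held without the 2 steers farthest from the median of the first miRNA, with r = 0.56 for miR-23b-3p and miR-27b, 0.65 for miR-27a-3p and miR-24-3p and 0.63 for the miR-23 forms. In steers with title numbers below 600 and in the others, r was 0.61 and 0.63 for miR-23b-3p with miR-27b, 0.63 and 0.64 for miR-27a-3p with miR-24-3p, and 0.67 and 0.51 for the miR-23 forms. The neighbours of the a cluster, miR-23a and miR-27a-3p, had r = 0.44 and rho = 0.42 (adjusted permutation p = 0.00021 and 0.000341), with r = 0.36 without the 2 farthest steers, 0.44 at title numbers below 600 and 0.42 in the others. The miR-27 forms had r = 0.45 and rho = 0.48 (adjusted permutation p = 0.00018 and 0.00012), with r = 0.43 without the 2 farthest steers, 0.65 at title numbers below 600 and 0.32 in the others.

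Across both clusters and families, miR-23a and miR-27b had r = 0.31 and rho = 0.27 (adjusted permutation p = 0.00964 and 0.0311), with r = 0.31 without the 2 farthest steers, 0.36 at title numbers below 600 and 0.29 in the others. By contrast, miR-23b-3p and miR-27a-3p had r = -0.02 and rho = -0.03 (adjusted permutation p = 0.943 and 0.899). The shared miR-24-3p had r = 0.38 and rho = 0.35 with miR-27b (adjusted permutation p = 0.00159 and 0.00446). With miR-23a it had r = 0.28 and rho = 0.29 (adjusted permutation p = 0.0254 and 0.0223), and with miR-23b-3p r = 0.13 and rho = 0.043 (adjusted permutation p = 0.362 and 0.893). At title numbers below 600 and in the others, r of miR-24-3p was 0.59 and 0.24 with miR-27b. With miR-23a it was 0.48 and 0.16, and with miR-23b-3p 0.34 and 0.060. Without the 2 farthest steers r was 0.33 with miR-27b, 0.26 with miR-23a and 0.052 with miR-23b-3p. The arms of the miR-27a hairpin had r = 0.01 and rho = -0.01 (adjusted permutation p = 0.943 and 0.899), at 2 to 48 reads of the 5p arm per steer. These values depend on scaling: with total counts in place of TMM factors, r was 0.58 for miR-23b-3p and miR-27a-3p and 0.90 for miR-23b-3p and miR-27b, while the median rho over all pairs moved to 0.26.

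**Figure D5:**
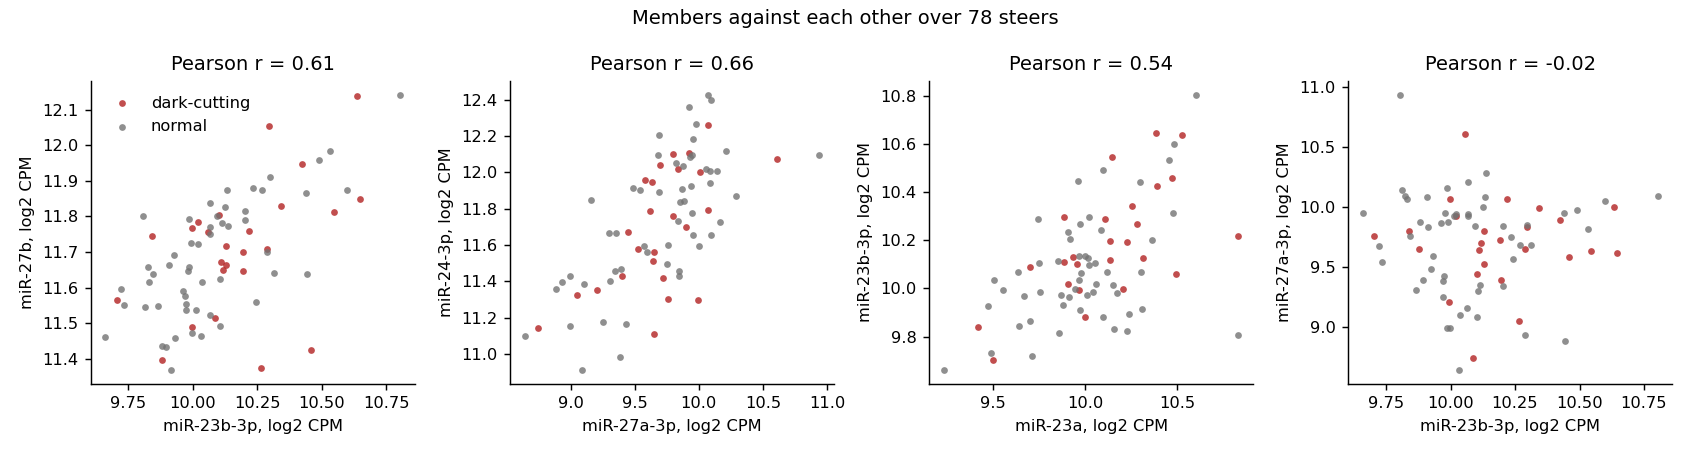
Log2 CPM of 1 member against another in 78 steers, dark-cutting in red and normal in grey, for 4 pairs named on the axes. The first 3 panels slope upward, with r of 0.61, 0.66 and 0.54, and the right-hand one, miR-23b-3p against miR-27a-3p, shows no slope, at r = -0.02.

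Outside the members, the miRNAs with the most similar pattern over the 78 steers were found by Spearman's rho on log2 CPM, 3 for each member. For miR-23b-3p they were miR-103 (rho = 0.53), miR-191 (0.51) and miR-320a (0.51), and for miR-23a miR-214 (0.47), miR-103 (0.43) and miR-193a-5p (0.35). For miR-27a-3p they were miR-208b (0.65), a miRNA of slow muscle fibres, miR-374a (0.65) and miR-195 (0.64). For miR-27b they were miR-208b (0.44), a row named miR-24 with no arm given (0.43) and miR-26b (0.39). For miR-24-3p they were miR-146a (0.68), an immune-response miRNA that is among the white blood cell markers above, miR-16a (0.64) and miR-143 (0.64), listed above under smooth muscle and pericytes. For miR-27a-5p the highest was miR-424-3p, at a rho of 0.33, below the 95th percentile of all pairs. The repeated row miR-10174-3p named the same miRNAs as miR-23b-3p.

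The members were set beside other miRNAs known for the same processes. Of 15 miRNAs of muscle wasting and glucose use, all were tested and 0 passed in dark-cutting against normal steers, where 1 had an unadjusted p under 0.05. Their median log2 fold change was -0.04, with 6 of 15 above 0, from -0.19 ± 0.11 (SE) for miR-29b to 0.16 ± 0.06 (SE) for the muscle-specific miR-206. Of 12 vessel and endothelial miRNAs, all were tested and 0 passed, with none at an unadjusted p under 0.05. Their median was -0.0055, with 4 of 12 above 0, from -0.23 ± 0.12 (SE) for miR-143 to 0.15 ± 0.08 (SE) for miR-17-5p. Over all 252 miRNAs 0 passed (0%), 23 had an unadjusted p under 0.05 (9.13%), and the median was -0.0091. With total counts as scale, 12 of the 15 and 10 of the 12 lay above 0, as did 183 of all 252.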

How the data were processed

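Small RNA libraries were made with a NEXTflex kit from TRI reagent total RNA, per the labels' protocols. FastQC, Trimmomatic 0.32 and DESeq2 1.34.0 stand in the submitters' processing notes. No source used here gives the aligner, counter or miRNA reference. Raw read counts per miRNA and steer make up the deposited matrix. The authors' deposited table holds a mean normalized signal, a log2 fold change and its error, a Wald score and p-values. Refitting dark-cutting against normal steers gave its scores within 7.55e-08, which settled its contrast.

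Counts were tested over the whole table with edgeR 4.0.16 in R 4.3.3 (quasi-likelihood F test, robust, TMM, Benjamini-Hochberg, threshold 0.05). Rows needed a minimum count of 10 by filterByExpr (252 miRNAs) or, for degrees and trend, 10 counts in 8 libraries (272, or 251 within dark-cutting steers). Log2 CPM used a prior count of 2. DESeq2 1.42.0, limma-voom (limma 3.58.1), other scalings, no filter, title-number ranges and left-out steers served as alternatives. The edgeR tests were checked on simulated counts with known changes, larger than the fitted values of the members that passed the filter. That check does not show how often changes as small as those would be found. Members and lists were chosen with earlier results of these data known. The named miRNAs are all members, the 3 most similar miRNAs to each, and the extremes of each list. Of 3003 pairs of libraries none was a near copy (smallest chi-square per degree of freedom 9.43). Steers are taken as separate animals from their title numbers. Their replicate numbers are counts in accession order and pair none.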

Additional observations from a re-analysis of the deposited data

Results flagged for a closer look

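In the 4 steers of degree 2/3, replicate 2 stood apart from the other 3 for a pair of members. Its miR-27a-3p level was 10.07 log2 CPM, with the nearest steer at 9.72. Its miR-10174-5p level was 0.82 log2 CPM, from 3 reads, with the nearest steer at -0.08, from 1 read. These were 2 of 48 sets of values examined, and chance flags about 5% of such sets.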

How the results depend on the processing

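No paired analysis was possible because replicate numbers only name the steers within a group. In every alternative run, no member passed after adjustment in any edgeR, DESeq2 or limma-voom comparison. Over all miRNAs, the count of calls for dark-cutting against normal was 2 without the low-count filter and 0 otherwise. At degree 2/3 it ranged from 0 to 1 with 1 steer left out, and was 0 without replicate 1 or replicate 4. For the trend over all steers it was 3 with DESeq2 size factors, with total counts, without the filter and with DESeq2, and 0 with limma-voom and without the steers of degree 2/3. Of 448 alternative values of the tested members, 64 changed sign. Among those the text prints, total counts gave 0.044 for miR-27a-3p and 0.024 for miR-24-3p in dark-cutting against normal, 0.087 for miR-24-3p at degree 1/3, and trend slopes of 0.13 for miR-27a-3p and 0.10 for miR-24-3p. The trend of miR-27a-3p was 0.0077 without the filter and 0.029 with limma-voom. Title numbers below 600 gave 0.13 for miR-27a-3p. miR-27b at degree 2/3 was 0.0025 without the filter, and from -0.11 to 0.022 with 1 steer left out, positive only without replicate 3. miR-27a-5p at degree 1/2 ranged from -0.86 (without replicate 1) to 0.93 with 1 steer left out. Total counts turned r to 0.58 for miR-27a-3p with miR-23b-3p and 0.58 with miR-10174-3p, and to 0.26 and 0.19 for miR-27a-5p with miR-27b and miR-24-3p. Of the log2 ratios, miR-23b-5p to miR-23b-3p had 0.57 with 1 added to each count (adjusted permutation p = 0.0702), and 0.79 to 0.98 with 1 steer left out. At 0.88 and 0.94, the miR-23b and miR-10174 ratios no longer passed when adjusted over the 29 pairs of arms. Within title numbers below 600 the ratios were 0.82 and 1.06, and within the others 0.91 and 0.89, and none passed. The miR-27a arm ratio ranged from 0.42 to 0.54 with 1 steer left out, and passed in 8 of those 78 cases (lowest adjusted permutation p = 0.0337). It was 0.17 in the 43 steers with at least 10 counts in both rows, a filter that acts on the 5p count alone and so keeps steers by the upper term of the ratio. With 1 steer left out, miR-23a to miR-23b-3p ranged from -0.0098 to 0.040, and it was -0.0020 at title numbers of 600 or more. miR-27a-3p to miR-27b was 0.12 and miR-23a to miR-27a-3p was -0.016 at title numbers below 600. The causes were not tested. These ratios within title ranges, with 1 steer left out and adjusted over all pairs of arms were chosen after seeing the data. Depth limits the 5p rows, which hold 134 to 868 reads in all.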
